A study of Mus musculus with 4 samples.

Results

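The genes described here are 8 transcripts of the enteric nervous system: the neuropeptide genes Vip and Tac1, the neuronal genes Nos1, Uchl1 and Ret, and the glial genes Gfap, S100b and Sox10. They were found by their symbols among the 19308 genes counted in all 4 libraries of the series, and their identifiers were looked up in each library. All 8 were found and all 8 passed the filter on low counts. They were chosen by their measured levels in Itch KO and WT, as peptide genes against neuron and glia identity genes, so their differences between genotypes are given as a description, without a test. RNA sequencing was done on total RNA of flash-frozen colonic mucosa from 2 WT libraries, whose genotype is given as C57BL/6, and 2 libraries labelled Itch KO, which lack the E3 ubiquitin ligase gene Itch. The protocol calls the knockout mucosa inflamed, but the sample labels give inflammation as the state of all 4. The labels used here do not tell age, sex or whether each library came from its own animal. Any p-value below therefore reflects the spread between single libraries, which may be technical.

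The enteric nervous system consists of small ganglia in the submucosa and between the muscle layers of the gut, with nerve fibres that reach into the mucosa. VIP, made by secretomotor and inhibitory motor neurons, relaxes smooth muscle and drives epithelial secretion. Substance P and neurokinin A, both cut from the Tac1 product, excite smooth muscle and act on epithelium, vessels and immune cells. Neuronal cell bodies make the messenger RNA, and enteric glia, which carry GFAP, S100B and SOX10, surround them.

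Total counts over the shared genes were 8181193 to 12199709, and the 8 genes had 26 to 926 counts in a library. In CPM, which are counts scaled to a common library size, Itch stood at 204 and 183 in WT and at 11.9 and 13.4 in Itch KO. The epithelial genes Epcam and Krt20 were at 136 to 207 CPM in every library. Car1 was also near level, at 112 and 116 CPM in WT, with 107 and 97.0 CPM in Itch KO. Not all epithelial genes were level: Muc2, under an identifier without an annotated position, was at 19.4 and 27.1 against 9.83 and 2.27 CPM. Smooth muscle genes were also present, with a summed level over 10 genes of 2091 and 1356 CPM in WT and 994 and 1267 CPM in Itch KO. Squamous epithelium genes summed to 764 CPM in WT replicate 1 against 13.9 to 35.0 CPM in the other libraries. Over all 16956 genes tested with edgeR's quasi-likelihood test, 0 passed a Benjamini-Hochberg adjusted p of 0.05 in either direction, a background of 0%. Itch itself did not pass (adjusted p by edgeR = 0.092), though DESeq2 called it lower with an adjusted p of 9.41e-57. A gene that did not pass edgeR is therefore not shown to be unchanged. At an unadjusted p below 0.05, 10.2% of tested genes were higher and 9.52% lower in Itch KO. DESeq2, an alternative, called 5.35% of these genes higher and 4.66% lower. Both Itch KO libraries lay above both WT libraries for 30.0% of tested genes and below both for 26.0%.

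The stretches before the Vip and Tac1 start sites are shown because these 2 genes had the largest log2 fold changes of the 8, and because cyclic AMP response elements, bound by CREB-type factors, are a known feature of neuropeptide promoters. The sequences are from RefSeq (GRCm38.p6), plus strand, 5′ to 3′. Capitals mark TGACG, the core of that element, or the same letters read on the other strand, CGTCA.
Vip, chr10:5638968-5639217: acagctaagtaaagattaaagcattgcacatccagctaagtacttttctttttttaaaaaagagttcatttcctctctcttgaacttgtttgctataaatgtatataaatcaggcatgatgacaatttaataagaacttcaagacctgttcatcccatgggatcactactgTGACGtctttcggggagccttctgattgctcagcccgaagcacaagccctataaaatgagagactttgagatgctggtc
Tac1, chr6:7554811-7554878: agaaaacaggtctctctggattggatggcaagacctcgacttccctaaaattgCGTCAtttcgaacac
Tac1, chr6:7555006-7555035: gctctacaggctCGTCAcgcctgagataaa
The match in Vip began 79 bases before the RefSeq start site, and those in Tac1 197 and 43 bases before it. For Tac1 the 2 annotations differ: the RefSeq start site is at 7555061, while the GENCODE gene begins upstream at 7554879, so the second Tac1 stretch lies inside the GENCODE gene. Of the 8 genes 6 had an entry in the promoter table, and Nos1 was the third with a match, 130 bases before its start site. Of the 16 genes of the neuropeptide list 13 had an entry and 9 of these a match. The same letters occurred in 17.8% of the 32851 windows of 250 bases before a start site. The full palindrome TGACGTCA, which contains both of these letter strings, occurred in 1.55% of windows, in 2 of the 13 neuropeptide genes (Sst and Cartpt) and in none of the 6 entries. A match is only a match of letters and does not show that a factor binds there.

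Vip (ENSMUSG00000019772, chromosome 10, 5639218 to 5647617, GRCm38, plus strand, protein-coding) was at 33.1 and 43.1 CPM in WT, with 74.0 and 95.6 CPM in Itch KO. The groups did not overlap, and the lower Itch KO library stood above the higher WT library. The means were 38.1 ± 7.10 and 84.8 ± 15.3 CPM (SD, n = 2 each), a log2 fold change of 1.15 with a standard error of 0.23 from the edgeR fit. Leaving out each library in turn gave 0.97 to 1.36. In bulk tissue, fewer cells of a type and less RNA per cell cannot be told apart.

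Tac1 (ENSMUSG00000061762, chromosome 6, 7554879 to 7565834, plus strand) was at 37.8 and 33.5 CPM in WT, with 84.4 and 59.1 CPM in Itch KO. Here too the groups did not overlap, but the Itch KO library with more Vip had less Tac1. The log2 fold change was 1.01 (SE 0.23), and 0.73 without Itch KO replicate 1. Tac1 is also made by enterochromaffin cells of the epithelium. The 12 enteroendocrine genes all had negative log2 fold changes, as had 8369 of all 16956 tested genes. Both Itch KO libraries lay below both WT libraries for 7 of the 12 (58.3%, against 26.0% of all tested genes). The summed level of the 12 was 510 and 716 CPM in WT, with 354 and 278 CPM in Itch KO. The secretory granule gene Chgb was at 147 and 177 against 100 and 62.0 CPM. Between the Itch KO libraries, by contrast, the enteroendocrine genes and Tac1 were both lower in replicate 2 (median log2 difference -0.65, and -0.51 for Tac1). The part of enteroendocrine cells in the Tac1 level was not tested.

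Nos1, the neuronal nitric oxide synthase of inhibitory motor neurons, many of which also make VIP, was at 38.1 and 63.1 CPM in WT, with 18.3 and 60.1 CPM in Itch KO. The groups overlapped and Itch KO replicate 1 was low alone. The log2 fold change of -0.37 (SE 0.64) was 0.25 without Itch KO replicate 1, 0.047 without WT replicate 2 and -1.46 without Itch KO replicate 2, so its sign turned when either of the first 2 was left out. Nos1 thus lacked the separation of genotypes seen for Vip, although within each genotype both genes were higher in replicate 2.

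Uchl1, which encodes the abundant neuronal ubiquitin hydrolase PGP9.5, was at 20.7 and 31.9 CPM in WT, with 26.0 and 46.7 CPM in Itch KO. These groups overlapped as well, with a log2 fold change of 0.47 (SE 0.41). Ret, the receptor tyrosine kinase through which GDNF-family ligands support enteric neurons and their precursors, was at 41.7 and 60.6 CPM in WT, with 70.5 and 70.4 CPM in Itch KO. The Itch KO libraries were nearly equal and lay above both WT libraries, by less than the WT libraries differed from each other (log2 fold change 0.46, SE 0.23).

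Gfap, the intermediate filament gene of glia, was at 15.9 and 19.2 CPM in WT, with 14.4 and 45.1 CPM in Itch KO. The knockout libraries lay on either side of the WT pair, and the log2 fold change of 0.76 (SE 0.61) was -0.28 without Itch KO replicate 2. S100b, a calcium-binding protein gene of glia, was at 9.92 and 13.9 CPM in WT, with 3.19 and 9.92 CPM in Itch KO. Its higher Itch KO value and lower WT value were the same to 3 digits, so the groups touch (log2 fold change -0.86, SE 0.70).

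Sox10, the transcription factor that marks glia and neural crest progenitors, was at 16.3 and 18.99 CPM in WT, with 6.51 and 18.1 CPM in Itch KO, with overlapping groups. Its log2 fold change was -0.52 (SE 0.60) and stood at 0.03 without Itch KO replicate 1. The 3 glial genes thus shared no direction between genotypes, although all 3 were lowest in Itch KO replicate 1.

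**Figure D1:**
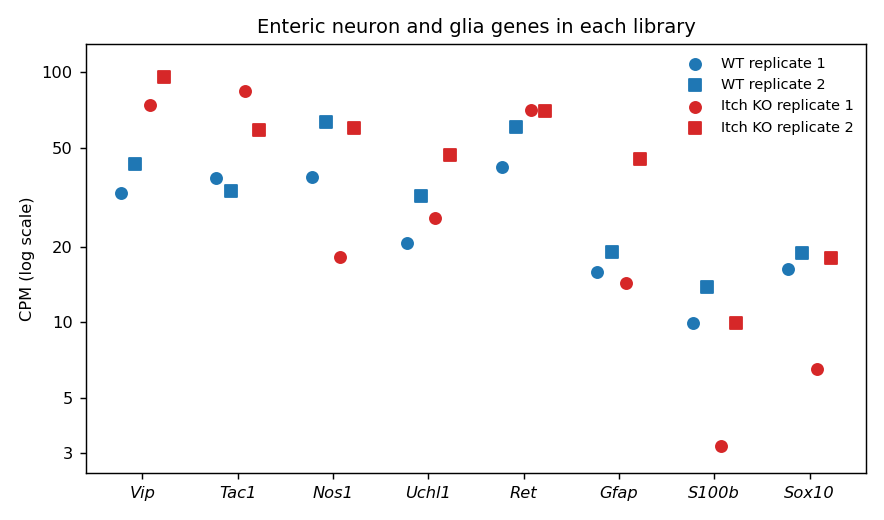
CPM of the 8 genes in each library on a log axis, WT in blue and Itch KO in red, with replicate 1 as circles and replicate 2 as squares. Vip and Tac1 lie at 59.1 to 95.6 CPM in the Itch KO libraries and at 33.1 to 43.1 CPM in WT, whereas Nos1, Gfap and Sox10 have overlapping groups and their lowest point in Itch KO replicate 1.

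Compared per kb of exon, so that genes of different length can be set side by side, the mean levels over the 4 libraries were 19.2 CPM per kb for Uchl1, 18.1 for Vip and 15.8 for Tac1. Ret followed at 8.99 CPM per kb, then S100b at 6.21, Gfap at 5.60, Sox10 at 4.91 and Nos1 at 4.03. Each gene's range over libraries overlapped that of its neighbour in this order. Within a library the order was not fixed: Vip and Tac1 were at 9.72 and 11.1 CPM per kb against 12.7 for Uchl1 in WT replicate 1, and at 21.7 and 24.8 against 16.0 in Itch KO replicate 1.

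The contrast of peptide with identity genes was summarised as the mean log2 CPM of Vip and Tac1 minus that of the other 6 genes. It was 0.75 and 0.38 in the WT libraries and 2.40 and 1.13 in the Itch KO libraries. The genotypes did not overlap, and the means differed by 1.20 on the log2 scale, with a within-group SD of 0.66. Of the 2 terms, the peptide mean was nearly level between the Itch KO libraries at 6.31 and 6.24, while the identity mean was 3.91 and 5.11, below and above the WT values of 4.41 and 4.88. Without Itch KO replicate 1 the difference between genotypes was 0.57. Vip stood at 1.60 and 1.35 times the Uchl1 level in WT and at 2.84 and 2.05 times in Itch KO. The ratio of Tac1 to Uchl1 overlapped, at 1.82 and 1.05 in WT and 3.24 and 1.27 in Itch KO.

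**Figure D2:**
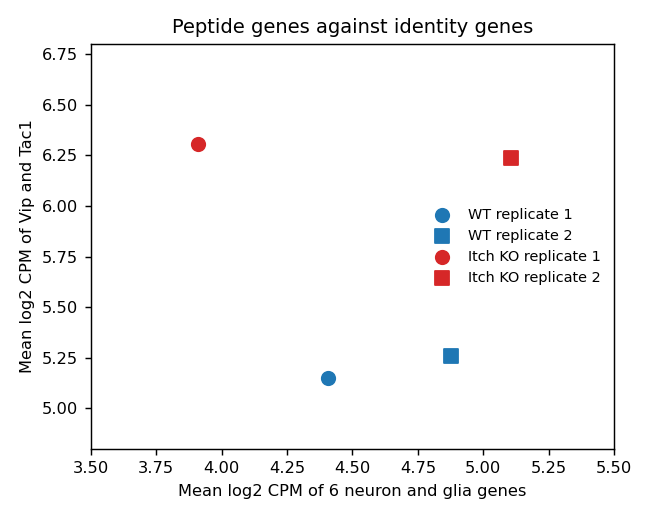
Each point is a library, with the mean log2 CPM of the 6 neuron and glia genes on the x axis and that of Vip and Tac1 on the y axis. The Itch KO libraries are level with each other in the peptides, at 6.31 and 6.24, and lie at opposite ends of the x axis, at 3.91 and 5.11.

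The other neuropeptide genes were taken from a list of 16, of which 14 are not among the 8 genes and 13 of these were tested. With edgeR none of the 13 passed an adjusted p of 0.05, while at an unadjusted p below 0.05 there were 3 higher (Npy, Penk and Cartpt) and 0 lower. At the latter cut 10.2% of all tested genes were higher and 9.52% lower. Both Itch KO libraries lay above both WT libraries for 6 of the 13 (46.2%, against 30.0% of all tested genes), and below both for none. That count was 12 (92.3%) without WT replicate 2, when 40.1% of all tested genes separated in this way. Without WT replicate 1 it was 6 (46.2%), against 40.0% of all tested genes. Without Itch KO replicate 1 it was 9 (69.2%) and without Itch KO replicate 2 it was 6 (46.2%), against 41.0% each. The median log2 fold change of the 13 was 0.89, against 0.01 for all tested genes.

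Penk, the precursor of the enkephalins, was at 26.1 and 34.0 CPM in WT, with 42.3 and 68.9 CPM in Itch KO, so every Itch KO value exceeded every WT value (log2 difference 0.89, SE 0.32, adjusted p by edgeR = 0.245). Npy, the precursor of neuropeptide Y, was sparse at 1.07 and 0.244 CPM in WT, with 4.42 and 7.54 CPM in Itch KO (edgeR adjusted p = 0.186). Cartpt, the precursor of the CART peptide, was at 2.45 and 8.39 CPM in WT, with 16.6 and 37.3 CPM in Itch KO (log2 difference 2.30, SE 0.80, adjusted p by edgeR = 0.238). DESeq2 called Cartpt higher and no other of the 13, where it called 5.35% of all tested genes higher. Not all peptide genes went this way. Gal, the precursor of galanin, was at 2.99 and 22.5 CPM in WT, with 20.6 and 40.1 CPM in Itch KO, and Nts, the precursor of neurotensin, at 4.27 and 60.1 against 4.55 and 19.6 CPM, both overlapping.

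The receptors of these peptides had log2 fold changes with a median of -1.31 among 17 tested genes. With edgeR 0 passed, and at an unadjusted p below 0.05 there were 0 higher and 2 lower, Sstr1 and Galr2. Of all tested genes 10.2% were higher and 9.52% lower at that cut. Both Itch KO libraries lay below both WT libraries for 8 of the 17 (47.1%, against 26.0% of all tested genes) and above both for 2 (11.8%, against 30.0%). Vipr1, the VIP receptor of colonic epithelium, was at 280 and 241 CPM in WT, with 277 and 163 CPM in Itch KO, with overlap. Vipr2, the second VIP receptor, was at 18.6 and 44.6 CPM in WT, with 8.60 and 16.5 CPM in Itch KO (log2 difference -1.33, SE 0.60, adjusted p by edgeR = 0.315).

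The substance P receptor gene Tacr1 was at 29.0 and 19.2 CPM in WT, with 35.3 and 82.1 CPM in Itch KO (log2 difference 1.29, SE 0.49, adjusted p by edgeR = 0.264). Tacr2, the neurokinin A receptor gene, was at 34.0 and 20.8 CPM in WT, with 5.16 and 20.5 CPM in Itch KO (log2 difference -1.09, SE 0.75, adjusted p by edgeR = 0.461). The groups of both genes were apart, in opposite directions, and neither passed. Sstr1, a somatostatin receptor gene, had the largest difference of the list at 21.7 and 64.8 CPM against 2.33 and 1.24 CPM (log2 difference -4.60, SE 0.77, adjusted p by edgeR = 0.128). DESeq2 called it lower, with an adjusted p of 3.16e-08. Calcrl and Ramp1, which together form the receptor for CGRP, overlapped at 69.8 and 55.3 against 46.7 and 96.6 CPM and at 61.0 and 70.6 against 61.3 and 45.8 CPM.

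Genes of transmitter synthesis and transport other than Nos1 showed no call in edgeR, at an unadjusted p below 0.05 or in DESeq2 (9 tested, median log2 fold change -0.56). Of all tested genes 10.2% were higher and 9.52% lower at that unadjusted cut, and 5.35% and 4.66% in DESeq2. With so few genes, no call is near these shares. Both Itch KO libraries lay below both WT libraries for 4 of 9 (44.4%, against 26.0% of all tested genes) and above both for none. Ache, which encodes acetylcholinesterase, was at 40.3 and 53.2 CPM in WT, with 36.0 and 29.2 CPM in Itch KO. Ddc, the decarboxylase of serotonin and dopamine synthesis, which epithelium also makes, was at 98.3 and 73.3 against 61.2 and 33.3 CPM. Both were lower in each Itch KO library than in each WT library, without passing edgeR's test (adjusted p = 0.321 and 0.285). Slc18a2, the vesicular monoamine transporter gene, overlapped at 19.1 and 34.9 against 27.5 and 29.6 CPM.

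The neuron identity list, without Uchl1 and Ret, had 24 tested genes and a median log2 fold change of -0.18. No gene of it was higher in both Itch KO libraries than in both WT libraries, and 2 were lower, Map2 and Scn3a, shares of 0% and 8.33% against 30.0% and 26.0% of all tested genes. The same 2 genes were lower at an unadjusted p below 0.05 and in DESeq2 (9.52% and 4.66% of all tested genes). Map2, a dendritic microtubule-associated protein gene, was at 38.8 and 35.0 CPM in WT, with 7.74 and 14.5 CPM in Itch KO (edgeR adjusted p = 0.157). Scn3a, a sodium channel gene, was at 18.9 and 21.7 CPM against 3.93 and 6.61 CPM (edgeR adjusted p = 0.159).

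The 3 most abundant of these genes overlapped between genotypes. Stmn2, a microtubule regulator of axons, was at 48.0 and 42.1 CPM in WT, with 29.2 and 62.0 CPM in Itch KO. Prph, the peripheral neuron filament peripherin, was at 20.1 and 39.9 against 30.7 and 68.7 CPM, and Tubb3, neuronal beta tubulin, at 19.1 and 32.8 against 31.2 and 71.2 CPM. In each of the 3, Itch KO replicate 2 held the highest value of the 4 libraries.

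Ret ligands and co-receptors gave 0 calls among 8 tested genes, with 1 higher and 1 lower at an unadjusted p below 0.05. The shares of all tested genes were 10.2% and 9.52%. The ligand genes Gdnf and Nrtn overlapped, at 7.47 and 13.2 against 3.19 and 14.3 CPM and at 2.99 and 6.36 against 3.56 and 5.37 CPM. Gfra1, the co-receptor for GDNF, was at 38.4 and 36.5 CPM in WT, with 5.53 and 17.5 CPM in Itch KO, apart from each other while Ret itself stood higher (log2 difference -1.70, SE 0.61, adjusted p by edgeR = 0.245). Artn, the ligand artemin, was the 1 gene on the higher side, at 6.83 and 4.97 against 11.3 and 28.6 CPM (log2 difference 1.76, SE 0.62, adjusted p by edgeR = 0.240). Gfra2, the co-receptor for neurturin, overlapped at 27.6 and 20.8 against 14.3 and 32.7 CPM, and Gfra4 at 23.2 and 5.38 against 7.004 and 19.7 CPM.

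The glia list held 13 tested genes besides Gfap, S100b and Sox10. Both Itch KO libraries lay below both WT libraries for 8 of the 13 (61.5%, against 26.0% of all tested genes) and above both for none, with a median log2 fold change of -0.75. With edgeR 0 passed, and 3 were lower at an unadjusted p below 0.05 and in DESeq2: Cdh19, Kcna1 and L1cam. The shares of all tested genes were 9.52% and 4.66%. Cdh19, a cadherin gene of glia and Schwann cells, was at 18.6 and 18.8 CPM in WT, with 3.69 and 7.02 CPM in Itch KO (log2 difference -1.80, SE 0.50, adjusted p by edgeR = 0.186). Kcna1, a potassium channel gene, was at 22.0 and 16.1 against 1.84 and 5.89 CPM (log2 difference -2.29, SE 0.71, adjusted p by edgeR = 0.211). L1cam, an adhesion molecule gene of axons and glia, was at 199 and 220 against 142 and 96.5 CPM (edgeR adjusted p = 0.189).

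Gpm6b, a membrane glycoprotein gene of neurons and glia, did not separate, at 53.5 and 33.3 CPM in WT, with 41.3 and 91.7 CPM in Itch KO. Erbb3, the neuregulin receptor gene, which epithelium also makes, was the most abundant of the list, at 341 and 332 against 257 and 142 CPM (edgeR adjusted p = 0.299). Erbb3 and L1cam were both lower in Itch KO replicate 2 than in replicate 1, unlike Gfap, S100b and Sox10.

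**Figure D3:**
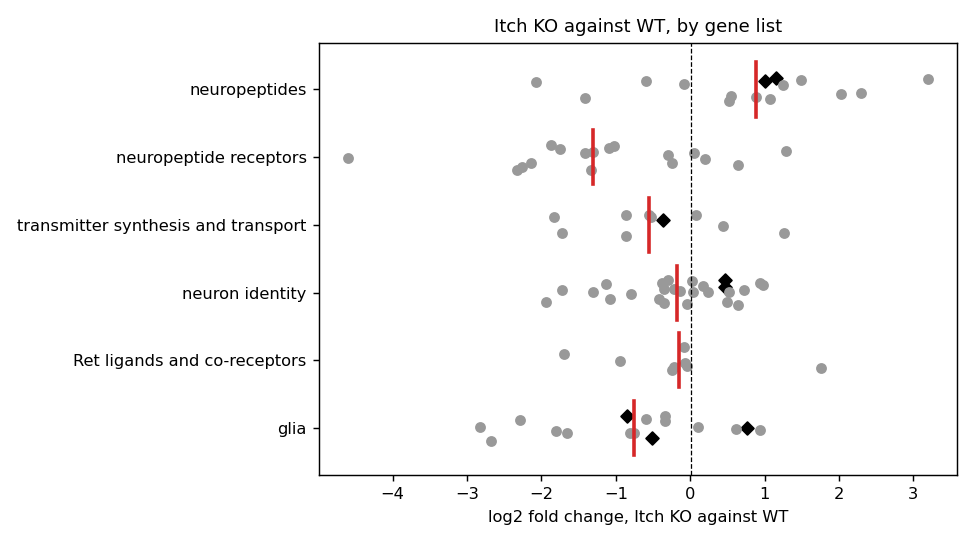
Log2 fold change of each tested gene, Itch KO against WT, by list. Black diamonds are the 8 genes, grey points the others, red bars the median without the 8 genes, and the dashed line the median of all tested genes. The neuropeptide median lies at 0.89 and the receptor and glia medians at -1.31 and -0.75, with wide spread in each list.

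Neural genes also differed between the Itch KO libraries. Nos1 was 3.28 times as high in Itch KO replicate 2 as in replicate 1, Gfap 3.14 times, S100b 3.10 times, Sox10 2.78 times and Uchl1 1.79 times. Vip was only 1.29 times as high, Ret was equal at 0.999 times, and Tac1 was lower in replicate 2 at 0.700 times. Among the genes that are not of the 8, all 24 tested neuron identity genes had more CPM in Itch KO replicate 2 than in replicate 1, by a median of 1.21 on the log2 scale, where 45.5% of all tested genes were. The same held for all 13 other neuropeptide genes (median 0.95) and for 10 of 13 other glial genes (median 1.15). Between the WT libraries, 10 of these 13 neuropeptide genes were also higher in replicate 2, by a larger median of 1.69. So were 17 of the 24 neuron identity genes (median 0.56), but only 5 of the 13 glial genes (median -0.04). Of all 16956 tested genes 8527 were higher in WT replicate 2, and of the 12 enteroendocrine genes 9 were (median 0.43). WT replicate 1 held the lowest of the 4 values for 10 of the 13 neuropeptide genes, against 3902 of all 16956 tested genes. With 1 library on each side these differences have no replicate check.

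Itch KO replicate 1 held the lowest of the 4 values for 18 of the 24 neuron identity genes (75.0%), against 21.5% of all tested genes. Smooth muscle genes differed less between these libraries, with 9 of 10 higher in replicate 2 by a median of 0.34, with Myh11 at 199 and 271 CPM. Enteroendocrine genes went the other way (3 of 12 higher, median -0.65). Genes of the interstitial cells of Cajal, the pacemaker cells beside the ganglia, were higher in replicate 2 for 4 of 5 genes (median 1.25), with Kit at 80.5 and 122 CPM but Ano1 at 134 and 72.3 CPM. The part of such differences in tissue makeup in the values of the 8 genes was not tested.

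**Figure D4:**
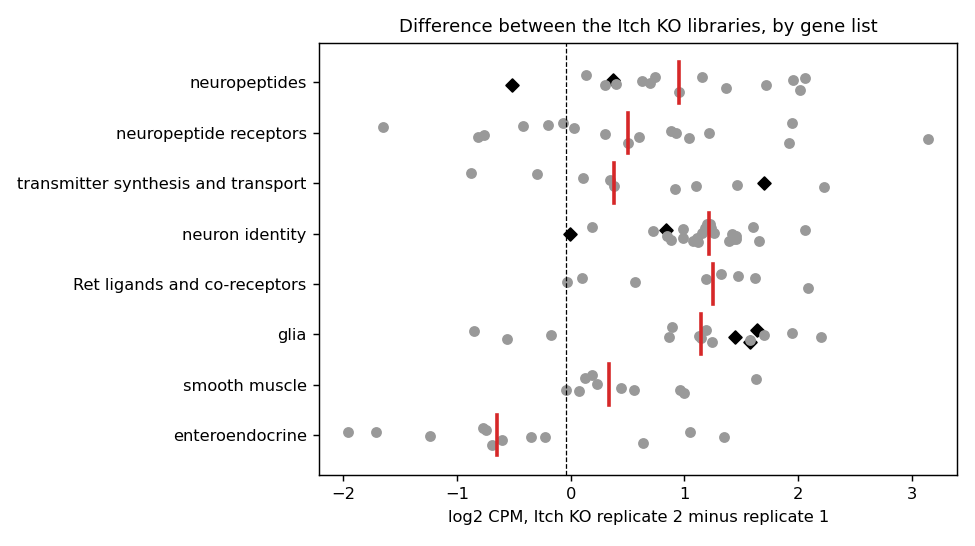
Log2 CPM in Itch KO replicate 2 minus replicate 1 for each tested gene, by list. Black diamonds are the 8 genes, grey points the others, red bars the median without the 8 genes, and the dashed line the median of all tested genes at -0.04. All neuron identity genes but Ret lie to the right of 0, while Tac1 lies to the left.

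Other cell types that make some of these transcripts were looked at by lists of their markers. Adipocytes also make S100b, and their 8 markers summed to 159 and 406 CPM in WT and 96.1 and 186 CPM in Itch KO, highest and lowest in the same libraries as S100b. Among them Plin4 was at 81.9 and 90.5 against 6.14 and 21.5 CPM, and Lipe at 29.1 and 63.3 against 39.0 and 67.8 CPM. Melanocytes also make Sox10, and their 6 markers summed to 28.6 and 26.3 CPM in WT and 23.3 and 38.8 CPM in Itch KO. Mitf, a transcription factor gene that other cell types also make, held most of this at 18.0 and 14.0 against 15.0 and 33.5 CPM, and Pmel was at 5.16 to 9.71 CPM. Dct was at 0.207 to 3.42 CPM and Mlana at 0.213 CPM or less, and the pigment enzyme genes Tyr and Tyrp1 had 0 counts in each library. The part of either cell type in the S100b and Sox10 levels was not tested. Leukocyte markers were higher in both Itch KO libraries than in both WT libraries for 8 of 8 genes (30.0% of all tested genes), summing to 268 and 227 CPM in WT, with 686 and 946 CPM in Itch KO. Ptprc, the pan-leukocyte gene, was at 76.2 and 72.6 against 199 and 244 CPM. These markers moved in the direction of Vip and Tac1, and their part in those levels was not tested.

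Fold change also moved with transcript length across the whole data set. The median log2 fold change was 0.30 in the tenth of tested genes with the shortest exonic length (median 840 bases) and -0.35 in the tenth with the longest (median 11964 bases). Vip and Tac1 had exonic lengths of 3402 and 3399 bases, near the middle of this range, while Nos1 had 11151. With the trend on length removed from each library, the log2 fold changes of Vip and Tac1 were 1.08 and 0.93, that of Nos1 went from -0.37 to -0.07, and that of Uchl1 (1632 bases) from 0.47 to 0.28. The medians of the other neuropeptide and glial genes were then 0.70 and -0.67. Map2 (16449 bases) and Scn3a (12459 bases), the pair of neuron identity genes lower in Itch KO, went from -1.73 to -1.28 and from -1.94 to -1.60.

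**Figure D5:**
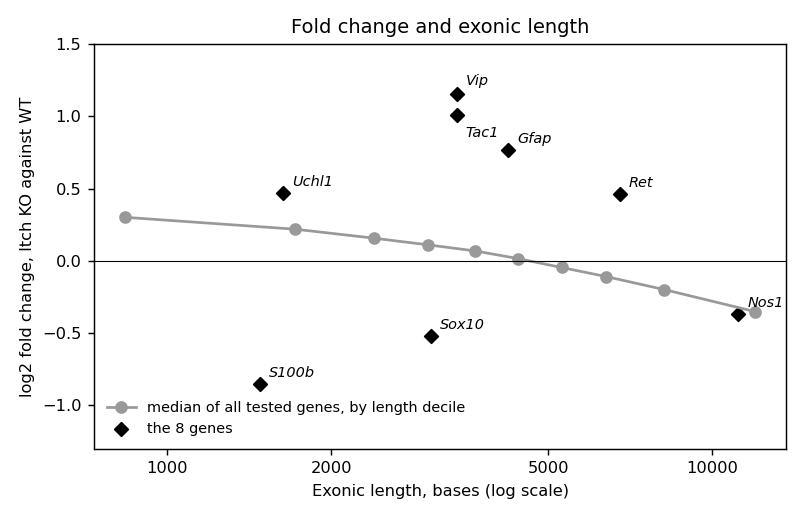
Log2 fold change, Itch KO against WT, against exonic length on a log axis. Grey circles are medians over all tested genes in 10 groups of increasing length, falling from 0.30 to -0.35, and black diamonds are the 8 genes. Nos1 lies on the grey line and Vip and Tac1 lie above it.

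The genes whose profile over the 4 libraries was most like that of Vip were Agap2, Socs3 and Hilpda, among 14351 genes averaging 5 CPM or more. Likeness was the Euclidean distance between log2 CPM profiles centred on their means, and these distances were 0.12 each. Socs3, a feedback inhibitor of cytokine signalling, was at 70.9 and 83.6 CPM in WT, with 158 and 193 CPM in Itch KO. Closest to Tac1 were Polq and Troap, at distances of 0.16 each. Polq, a DNA polymerase gene of break repair, was at 15.3 and 12.9 CPM in WT, with 33.5 and 26.4 CPM in Itch KO. Closest to Gfap were Hrct1, P2rx1 and Nell2, at 0.08 to 0.15. With 4 libraries many genes share a profile of this kind.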

How the data were processed

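Each of the 4 libraries has its own file of raw read counts per gene, as deposited by the authors. Per the submitters' processing notes, HTSeq 0.6.1, TopHat2, SAMtools 0.1.19 and CASAVA 1.8.2 were used, with builds named as GRCm38 and mm10. Whether counting used strand is not given in the sources used here, and without it a gene and its antisense partner cannot be separated. WT replicate 1 lists 19308 genes and the others 39179, and the 19308 shared genes were used. Summary lines for reads without a gene (18.2% to 23% of a library) and ambiguous reads (2.67% to 3.03%) stayed out, and are not part of the file of WT replicate 1. The highest single count was 9389.

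CPM used TMM factors. The test was edgeR 4.0.16 (R 4.3.3) with glmQLFit, filterByExpr at a minimum count of 10, robust estimation, group as the only term and two-sided Benjamini-Hochberg adjustment over 16956 genes. Alternatives were RLE factors, no filter, DESeq2 1.42.0, edgeR's legacy=FALSE estimator, a replicate block and each library left out. Added after seeing the data were removal of the trend on exonic length (union of GENCODE M21 exons, GRCm38) and counts of separated genes with each library left out. Log2 CPM used a prior count of 2. The fit was tested on simulated counts with 200 changed genes.

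The 8 genes and all 13 lists were chosen with earlier results of these data known. Named were Itch, the 8 genes, their receptors, ligands and co-receptors, and the 3 most abundant other genes of each of 6 neural lists. Also named were up to 2 abundant genes of each of 7 lists of other cell types and the 3 genes most like Vip, Tac1 and Gfap, of which 1 is not reported here. All other names were chosen after their values were seen. Of the list genes 3 were not in all 4 files and were not used.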

Additional observations from a re-analysis of the deposited data

How the results depend on the processing

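With edgeR the count of genes past the threshold was 0 over all genes and in each of the 6 neural lists under every alternative run except DESeq2. DESeq2 called 1753 genes over all it tested, among them 3 of 15 neuropeptide genes, which were higher. Lower were 1 of 17 receptor genes, 2 of 26 neuron identity genes and 3 of 16 glial genes. Among all genes of the edgeR test, DESeq2 called 5.35% higher and 4.66% lower. Of the 3 neuropeptide genes, 2 are Vip and Tac1, which were chosen on these values. The third was Cartpt, from a list that was also chosen with earlier results of these data known. Leaving out each library in turn moved the log2 fold change of Vip from 0.97 to 1.36, Tac1 from 0.73 to 1.25, Ret from 0.24 to 0.75, S100b from -1.88 to -0.26, Nos1 from -1.46 to 0.25, Gfap from -0.28 to 1.36, Sox10 from -1.43 to 0.034 and Uchl1 from -0.01 to 0.83. Nos1, Gfap, Sox10 and Uchl1 thus changed sign when a library was left out. The contrast of peptide with identity genes ran from 0.57 to 1.84. The count of other neuropeptide genes above both WT libraries ran from 6 to 12, and that of other glial genes below both from 8 to 12. With a library left out, the share of all tested genes was 40.0% to 41.0% above and 35.3% to 38.8% below. The titles number the replicates in both groups. Over genes, same-numbered libraries did not deviate together (correlation 0.048), so the replicate block is given only here. Of the 13 other neuropeptide genes, however, 10 in WT and 13 in Itch KO were higher in replicate 2. The block called 0 genes, and the log2 fold changes were 1.16 for Vip and 0.99 for Tac1 with it. Those of Nos1, Gfap, S100b and Sox10 were -0.555, 0.554, -1.04 and -0.688, and those of Ret and Uchl1 0.486 and 0.440. With 2 libraries a group and a biological coefficient of variation of 34.8%, missing calls do not show equal levels.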

Other observations

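Genes of the neural lists also differed by several fold between the WT libraries. Among the 13 other neuropeptide genes, 10 were higher in WT replicate 2, with a median log2 difference of 1.69 over the 13. Of all 16956 tested genes 8527 were higher there. So were 9 of the 12 enteroendocrine genes (median 0.43), and the part of enteroendocrine cells in these peptide levels was not tested. Chrnb4, a nicotinic receptor subunit gene of autonomic neurons, was at 6.08 CPM in WT replicate 1 and 74.3 CPM in WT replicate 2, against 15.2 and 17.4 CPM in Itch KO. Calcb, the precursor of the second CGRP, was at 52.0 CPM in WT replicate 1 and at 7.99, 3.19 and 10.9 CPM in the other libraries. Dbh, the enzyme that makes noradrenaline, was at 2.35 and 14.9 CPM in WT, with 14.3 and 27.2 CPM in Itch KO. Sox2, a transcription factor gene of glia and squamous epithelium, was at 13.2 CPM in WT replicate 1, which also held the squamous epithelium genes (Krt5 at 138 CPM, Krt13 at 123 CPM), against at most 2.12 CPM in the other libraries.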
